A study of Homo sapiens with 4 samples.

Results

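The genes described here belong to 7 families of amino acid transporters: SLC1, SLC3, SLC6, SLC7, SLC36, SLC38 and SLC43. They were taken as the protein-coding genes of GENCODE 29 whose symbol starts with one of these family names and a member number, and matched to the count files by Ensembl gene identifier. All 60 such genes were found among the 58735 genes in each file. One of them, SLC7A6OS, was matched by its symbol alone: it is an opposite-strand neighbour of SLC7A6 and encodes no transporter, so 59 genes encode transporters. This rule uses no expression value, although the families were picked with earlier results of these data known.

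The libraries come from A549, a human lung adenocarcinoma line. Cells in both arms were infected with lentivirus, carrying either a control hairpin (shControl, genotype labelled WT) or a hairpin against RALY (shRALY, genotype labelled RALY knockdown), and sampled at a time labelled day 2. Each arm has 2 libraries of poly-T-selected RNA. RALY encodes an hnRNP that binds RNA, and the comparison asks which RNA levels differ after its depletion. The labels give no hairpin sequence and name a single hairpin arm against RALY, so loss of RALY and any other effect of that hairpin cannot be told apart. They do not say whether replicates were separate cultures, so the spread behind the p-values may be technical.

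Amino acids cross membranes on carriers of several families that differ in ion coupling and substrate. SLC7 light chains carry the transport path of heteromeric exchangers and reach the cell surface bound by a disulfide bond to a heavy chain of the SLC3 family. SLC1, SLC6 and SLC38 carriers are driven by sodium, SLC36 carriers by protons, and SLC43 carriers let large neutral amino acids move down their gradient. Exchangers such as LAT1 (SLC7A5 with SLC3A2) bring in leucine against glutamine efflux, and several carriers also report amino acid supply to the kinase complex mTORC1. When amino acids are short, the transcription factor ATF4 raises many of these genes.

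The deposited counts summed to between 16745818 and 18632787 per library. RALY itself was at 123 and 133 CPM (counts scaled to a common library size) in shControl and 40.9 and 41.5 CPM in shRALY (log2 fold change -1.64, SE 0.11; edgeR quasi-likelihood test, adjusted p = 5.85e-11). CPM values are scaled by TMM, edgeR's correction for library composition, and p-values were adjusted by the Benjamini-Hochberg method over the 15912 genes that passed the filter on low counts, with 0.05 as the threshold. For the labelled cell type, alveolar basal epithelial cells, the epithelial keratin KRT7 averaged 2986 CPM in shControl and 3547 CPM in shRALY. All 6 listed epithelial genes were tested, and 3 were called higher (KRT7, KRT19 and CDH1, at log2 0.25, 1.71 and 0.47) and 0 lower. That is 50% called, against 41.0% of all tested genes. EPCAM was at only 2.29 to 3.54 CPM. The surfactant genes SFTPC, SFTPA1, SFTPA2, SFTPB and SFTPD, the factor NKX2-1 and the basal keratin KRT5 had at most 4 counts in any library. Of the alveolar type II list, ABCA3 was at 72.2 to 103 CPM over the 4 libraries. LAMP3 had 1 and 4 counts in shControl and was at 27.2 and 36.3 CPM in shRALY (log2 7.72). It passed the filter through the shRALY libraries alone, so that it had to differ. In the basal list, TP63 was called lower, from 3.35 and 3.29 CPM to 1.36 and 1.59 CPM (log2 -1.17, edgeR adjusted p = 0.00726). KRT15 was called higher, from 1.17 and 1.41 CPM to 3.75 and 3.67 CPM (log2 1.52, edgeR adjusted p = 8.23e-04). NGFR, with 2 and 6 counts against 19 and 11, also passed through shRALY alone and was called higher. The summed level of 12 immune markers was 14.2 and 15.6 CPM in shControl and 14.7 and 12 CPM in shRALY. In these bulk RNA samples, fewer cells of a type and less RNA per cell cannot be told apart.

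Of the 60 genes, 29 passed the filter on low counts, 11 were called higher and 5 lower in shRALY, and 13 were not called. Among all tested genes 41.0% were called, 20.6% higher and 20.4% lower. Among the tested protein-coding genes, the class the 60 belong to, 45.4% were called, 22.9% higher and 22.4% lower. The median log2 fold change of the 29 genes was 0.27, against -0.01 over all tested genes. Of the tested 29, 28 reached the filter's count in both groups, and SLC7A9 reached it through the shRALY libraries alone. Both shRALY libraries lay on one side of both shControl libraries in 75.9% of the 29 genes, near the 69.7% of all tested genes. By role, the calls fell as follows, and the difference between the roles was not tested. Of 6 tested heavy and light chains of the heteromeric exchangers, 4 were called lower and 0 higher. The same count at an unadjusted p under 0.05 was also 4 and 0, and DESeq2 called 4 and 0. Of 22 tested transporters outside the heteromeric group, 11 were called higher and 1 lower. DESeq2 did not call 3 of these 11, SLC38A9, SLC6A12 and SLC6A8, and called 8 of the 29 genes higher and 5 lower. With shRALY replicate 1 left out, 6 of the 29 genes were called higher and 3 lower. With shRALY replicate 2 left out, it was 4 in each direction.

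**Figure D1:**
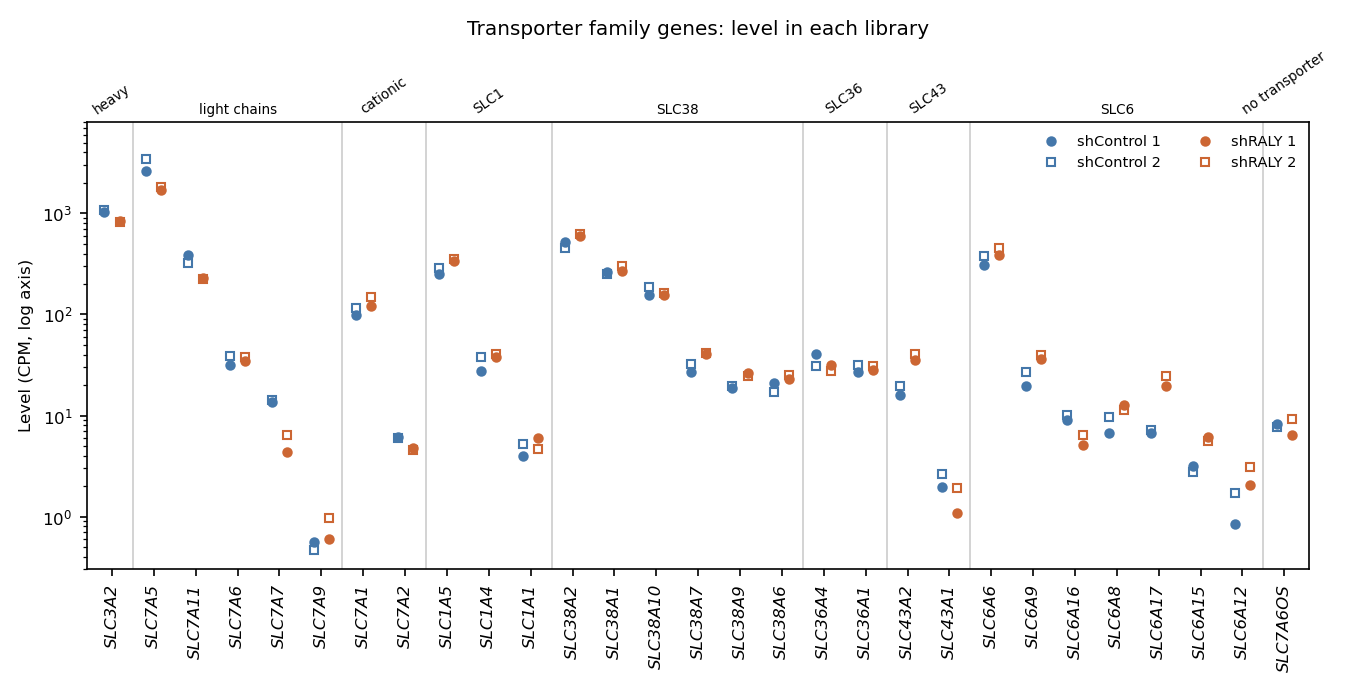
Level of each tested gene in each library, in TMM-scaled CPM on a log axis, with genes grouped by role and vertical lines between groups. Blue marks are the 2 shControl libraries and orange marks the 2 shRALY libraries. SLC7A5 has the highest level in all 4 libraries, from 1693 to 3416 CPM, and SLC7A9 the lowest, below 1 CPM.

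Levels of different genes were compared per exonic length, in TPM, which divides counts by the length of the GENCODE exons and scales each library to the same total. In shControl, SLC7A5 ranked first at 2193 ± 449 TPM (SD, n = 2), followed by SLC3A2 at 706 ± 31.7, the glutamine carrier SLC1A5 at 279.7 ± 33.0, the glutamine and alanine carrier SLC38A2 at 254 ± 19.7, the taurine carrier SLC6A6 at 144 ± 24.3 and the cystine carrier SLC7A11 at 127 ± 13.4 TPM. The neighbours SLC1A5 and SLC38A2, and SLC6A6 and SLC7A11, lay within their spread of each other. The first 5 places were held by the same genes in shRALY, and SLC7A11 moved from place 6 to place 7. SLC7A5 supplied 50.7% and 56.3% of the summed TPM of the 60 genes in shControl and 39.7% and 40.4% in shRALY. The summed TPM of the 60 genes was 3698 and 4459 in shControl and 2837 and 3009 in shRALY. Without SLC7A5 the sums were 1823 and 1948 against 1710.4 and 1792. TPM carries no TMM correction: SLC36A1, at a fitted log2 fold change of 0.00, averaged 14.5 TPM in shControl and 13.3 TPM in shRALY. The small gap between the sums without SLC7A5 is therefore not read as a fall of the other 59 genes.

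Of the 5 genes called lower, 4 encode chains of the heteromeric exchangers. SLC7A5 (GRCh38 chr16:87830023-87869488, minus strand), the light chain of the leucine exchanger LAT1, was at 2611 and 3416 CPM in shControl and 1693 and 1831 CPM in shRALY. Both shRALY libraries lay below both shControl libraries, and the fall was 1.71-fold (log2 -0.77, SE 0.11; edgeR adjusted p = 4.47e-06). The shControl libraries stood further apart than the shRALY libraries, and the log2 fold change was -0.96 without shControl replicate 1 and -0.55 without shControl replicate 2, with the call kept in both (edgeR adjusted p = 3.14e-14 and 6.65e-07). SLC7A5 shares 4.1% of its 50-base words with other genes, its pseudogene SLC7A5P2 most of all. That pseudogene held 0 counts in every library, and SLC7A5P1 held 13.0 to 31.0.

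SLC3A2 (chr11:62856102-62888875, plus strand), the heavy chain that carries SLC7A5, SLC7A6, SLC7A7, SLC7A8, SLC7A10 and SLC7A11 to the surface, was at 1038 and 1081 CPM in shControl and 839.6 and 827 CPM in shRALY. The groups did not overlap, and the fall was 1.27-fold (log2 -0.35, SE 0.09; edgeR adjusted p = 0.00518). Leaving out shRALY replicate 1 ended the call at the same size (log2 -0.35, adjusted p = 0.153 in edgeR), as did leaving out replicate 2 (log2 -0.33, adjusted p = 0.184 in edgeR). Per exonic length, the summed light chains that pair with SLC3A2 stood at 2.98 and 3.65 TPM per TPM of SLC3A2 in shControl and at 2.38 and 2.60 in shRALY. SLC3A1, the heavy chain of the kidney and gut cystine carrier, had 0 to 5 counts per library, which are uncertain because it shares 58.3% of its 50-base words with another gene model.

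SLC7A11 (chr4:138164097-138242349, minus strand), the light chain that takes up cystine in exchange for glutamate, was at 388 and 326 CPM in shControl and 229 and 226 CPM in shRALY. Both shRALY libraries lay below both shControl libraries, a 1.57-fold fall (log2 -0.65, SE 0.11; edgeR adjusted p = 3.76e-05). The long noncoding gene SLC7A11-AS1 covers 9.0% of its exonic bases on the other strand and held 47.0 to 78.0 counts per library. SLC7A7 (chr14:22773222-22829820, minus strand), which exports cationic amino acids in exchange for neutral ones, had the largest fall among the 29 tested genes. It was at 13.6 and 14.2 CPM in shControl and 4.35 and 6.42 CPM in shRALY, with no overlap (2.59-fold; log2 -1.37, SE 0.21; edgeR adjusted p = 1.34e-05). Of the 29 tested genes 3 were called higher and 1, SLC7A7, lower by 2-fold or more, and 13.6% of all tested genes were called at that size in either direction. SLC7A11 and SLC7A7 kept their calls with each library left out, with log2 fold changes of -0.75 to -0.52 and -1.66 to -1.11.

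SLC7A6, a second exporter of cationic amino acids, was at 31.7 and 38.5 CPM in shControl and 35 and 38 CPM in shRALY, and its groups overlapped (log2 0.06, SE 0.13; edgeR adjusted p = 0.764). Its neighbour SLC7A6OS was at 6.47 to 9.17 CPM over the 4 libraries (log2 -0.04; edgeR adjusted p = 0.91). The genes overlap on opposite strands over 55.6% and 64.5% of their exonic bases, and the strand setting of the counting is not given in the sources used here, so both values are uncertain. SLC7A9, the light chain that pairs with SLC3A1, had 8 to 16 counts per library (log2 0.60, SE 0.61; edgeR adjusted p = 0.471). SLC7A8, SLC7A10 and SLC7A13 did not pass the filter, with at most 6 counts in any library.

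**Figure D2:**
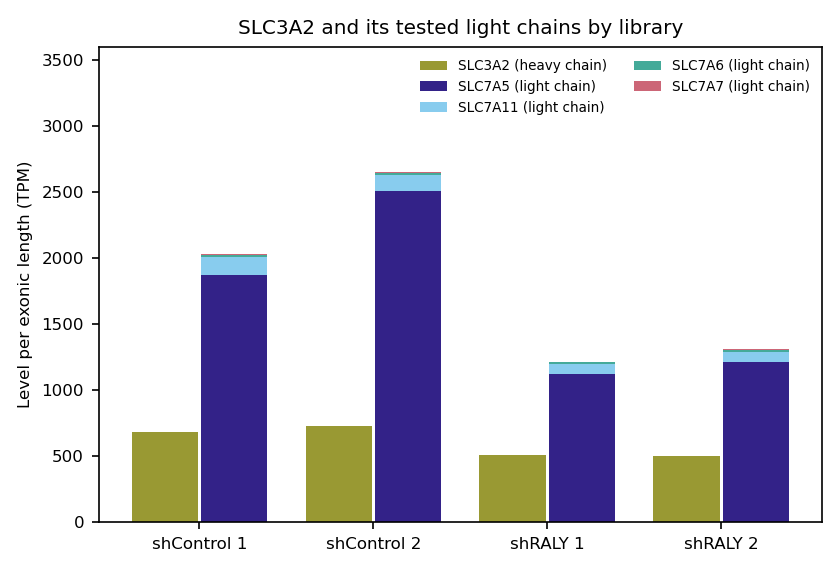
Level per exonic length, in TPM, of the heavy chain SLC3A2 (left bar of each pair) and of its tested light chains SLC7A5, SLC7A11, SLC7A6 and SLC7A7 stacked (right bar), in each of the 4 libraries. SLC7A5 makes up most of the stack in every library, and both stacks and heavy chain bars are lower in the shRALY libraries.

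Promoter sequence is shown for SLC7A5 and SLC3A2 because they encode the partners of one exchanger and were both called lower. RefSeq promoter windows (GRCh38.p14, 250 bases before to 50 after an annotated start) were at hand for 45 of the 60 genes and 24 of the 29 tested ones, with several starts for some genes. They were searched on both strands for 3 words: TGATGNAA, a core of the amino acid response element that ATF4 binds, CACGTG, the E-box bound by MYC and related factors, and TGACNNNGC, a core of the antioxidant response element that NRF2 binds. The stretches below cover only the 250 bases before the start, with matches to these words in capitals.
SLC7A5, chr16:87869508-87869757, minus strand: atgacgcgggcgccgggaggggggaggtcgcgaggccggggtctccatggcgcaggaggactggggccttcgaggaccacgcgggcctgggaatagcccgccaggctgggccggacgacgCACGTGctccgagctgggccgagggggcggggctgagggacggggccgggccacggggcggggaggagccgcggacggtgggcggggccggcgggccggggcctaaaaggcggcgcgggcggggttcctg
SLC3A2, chr11:62881449-62881698, plus strand: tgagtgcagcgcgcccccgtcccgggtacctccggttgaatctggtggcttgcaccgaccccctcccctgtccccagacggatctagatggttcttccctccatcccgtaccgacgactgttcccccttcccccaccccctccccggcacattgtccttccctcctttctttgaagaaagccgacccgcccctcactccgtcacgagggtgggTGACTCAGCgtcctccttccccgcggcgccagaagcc
The SLC7A5 stretch holds an E-box that starts 130 bases before the transcript start. A match to TGACNNNGC, TGACGCAGC, begins 2 bases before the start and runs past the shown stretch, so it is not in capitals. The SLC3A2 stretch, from one of 3 RefSeq starts, lies inside the longer gene model, where its end reaches an exon of transcripts annotated as non-coding. It holds TGACTCAGC 37 bases before its start, a word that also contains TGACTCA, the AP-1 site. Past the shown stretch, the same SLC3A2 window has TTACATCA, a match to TGATGNAA on the other strand, from base 38 of the transcript.

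The E-box word was in 3 of the 8 windows of genes called lower (SLC7A5, SLC7A7 and SLC6A16) and in 2 of the 16 windows of genes called higher (SLC1A5 and SLC38A7), against 7.26% of all 35116 windows. TGATGNAA was in 1 of the 8 windows among the falls (SLC3A2) and 2 of the 16 among the rises (SLC1A5 and SLC7A1). Of all windows, 3.62% held it. TGACNNNGC was in 3 of the 8 windows among the falls (SLC3A2, SLC7A5 and SLC7A7) and 2 of the 16 among the rises (SLC1A5 and SLC7A1). Of all windows, 13.3% held it. So each word was found among genes called higher and among genes called lower. These counts are a description of the letters in the windows, which covered 4 genes called lower and 9 called higher. SLC7A11, also called lower, had no window, so it was not searched for any of the 3 words.

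Among the cationic amino acid carriers, SLC7A1 (CAT1), which brings in arginine and lysine, was at 98.9 and 116 CPM in shControl and 122 and 149 CPM in shRALY. The groups did not overlap, by a narrow gap, and the rise was 1.26-fold (log2 0.33, SE 0.12; edgeR adjusted p = 0.0303). It was not called with shControl replicate 1 left out (log2 0.21, adjusted p = 0.0718 in edgeR), with shRALY replicate 2 left out (log2 0.19, adjusted p = 0.517) or with library size alone as the scaling (adjusted p = 0.0668). SLC7A2, the related carrier CAT2, was at 6.14 and 6.05 CPM against 4.79 and 4.59 CPM and was not called (log2 -0.38, SE 0.23; edgeR adjusted p = 0.205). SLC7A3, SLC7A4 and SLC7A14 had at most 2 counts in any library.

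In the SLC1 family, SLC1A5 (ASCT2; chr19:46774883-46788594, minus strand), which exchanges glutamine and other small neutral amino acids, was at 251 and 289 CPM in shControl and 338 and 357 CPM in shRALY. Both shRALY libraries were above both shControl libraries, a 1.29-fold rise (log2 0.36, SE 0.11; edgeR adjusted p = 0.00797). Leaving out either shRALY library ended the call (replicate 1, log2 0.41 and adjusted p = 0.0902 in edgeR; replicate 2, log2 0.34 and adjusted p = 0.183). An opposite-strand gene covers 23.8% of its exonic bases, so its counts are uncertain. SLC1A4 (ASCT1), a serine and alanine exchanger, was at 27.4 and 38 CPM against 37.9 and 40.7 CPM, with overlapping groups (log2 0.27; edgeR adjusted p = 0.145). With shControl replicate 2 left out it passed (log2 0.54, adjusted p = 5.26e-04 in edgeR). SLC1A1, a glutamate carrier, was at 4.02 to 6.04 CPM over the 4 libraries and was not called (log2 0.22; edgeR adjusted p = 0.513). The other glutamate carriers, SLC1A2, SLC1A3, SLC1A6 and SLC1A7, had at most 3 counts in any library.

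The SLC38 family takes up small neutral amino acids with sodium at the surface or moves them across the lysosomal membrane. Of its 11 genes 6 were tested, 3 were called higher and 0 lower (50% called, against 41.0% of all tested genes), with a median log2 fold change of 0.34. At an unadjusted p under 0.05 the counts were 4 and 0, and DESeq2 called 2 and 0. SLC38A2 (SNAT2; chr12:46358189-46372867, minus strand), an uptake carrier for glutamine and alanine whose gene is known to respond to amino acid shortage, was at 519 and 454 CPM in shControl and 603 and 626 CPM in shRALY, a 1.26-fold rise with no overlap (log2 0.34, SE 0.10; edgeR adjusted p = 0.0105). SLC38A7, a lysosomal glutamine and asparagine carrier, was at 26.9 and 32.6 CPM against 40.3 and 41.4 CPM, a 1.37-fold rise (log2 0.46, SE 0.13; edgeR adjusted p = 0.00765). SLC38A9, the lysosomal arginine sensor of mTORC1, was at 18.8 and 19.5 CPM against 26.1 and 24.4 CPM, a 1.32-fold rise (log2 0.40, SE 0.14; edgeR adjusted p = 0.0298).

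Each of these 3 calls was lost when a shRALY library was left out. Without shRALY replicates 1 and 2 the edgeR adjusted p was 0.125 and 0.194 for SLC38A2, 0.0689 and 0.0986 for SLC38A7, and 0.266 and 0.127 for SLC38A9, with log2 fold changes of 0.32 to 0.48. SLC38A9 was also not called by DESeq2 (adjusted p = 0.058) or with library size alone (edgeR adjusted p = 0.0601). SLC38A6 was at 21.0 and 17.1 CPM against 23.2 and 25.1 CPM, without overlap, and did not pass (log2 0.34; edgeR adjusted p = 0.0739), but passed with shControl replicate 1 left out (log2 0.50, adjusted p = 0.00711 in edgeR). SLC38A1 (SNAT1), an uptake carrier for glutamine, was at 265 and 251 CPM against 268 and 298 CPM (log2 0.13, SE 0.10; edgeR adjusted p = 0.325). SLC38A10 was at 155 and 188 CPM against 154 and 163 CPM (log2 -0.11; edgeR adjusted p = 0.462), and was -0.25 without shControl replicate 1 (edgeR adjusted p = 0.0128) and 0.05 without shControl replicate 2. SLC38A3, SLC38A4, SLC38A5, SLC38A8 and SLC38A11 had at most 8 counts in any library, those of SLC38A8 uncertain because an opposite-strand gene covers 23.7% of its exonic bases.

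In the SLC36 family of proton-coupled carriers, which act at lysosomes and the cell surface, 2 of 4 genes were tested and 0 were called, also by DESeq2 and at an unadjusted p under 0.05. SLC36A1 was at 27.1 and 31.7 CPM in shControl and 27.9 and 30.9 CPM in shRALY (log2 0.00, SE 0.14; edgeR adjusted p = 0.996). SLC36A4 was at 40.2 and 31.2 CPM against 31.5 and 27.6 CPM (log2 -0.27; edgeR adjusted p = 0.132), and passed with shControl replicate 2 left out (log2 -0.43, adjusted p = 0.00538 in edgeR). SLC36A2 and SLC36A3 had at most 1 count in any library.

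In the SLC43 family, SLC43A2 (LAT4; chr17:1569267-1628886, minus strand), a facilitative carrier of large neutral amino acids such as leucine and phenylalanine, was at 15.9 and 19.8 CPM in shControl and 35.1 and 41.0 CPM in shRALY. The groups were far apart relative to the spread within them, and the rise was 2.13-fold (log2 1.09, SE 0.15; edgeR adjusted p = 2.56e-06). The call was kept with each library left out, with log2 fold changes of 0.94 to 1.27. Its substrates overlap those of SLC7A5, which fell: per exonic length SLC43A2 stood at 11.3 ± 1.23 TPM in shRALY and SLC7A5 at 1172 ± 64.1 TPM (SD, n = 2). SLC43A1 (LAT3), a carrier of the same kind of substrate, was at 1.95 and 2.64 CPM against 1.09 and 1.90 CPM and was not called (log2 -0.63, SE 0.39; edgeR adjusted p = 0.216). SLC43A3, a purine nucleobase carrier in spite of its family, had 0 counts throughout. Another gene model on its strand covers 29.9% of its exonic bases, and how reads on both were counted is not stated.

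**Figure D3:**
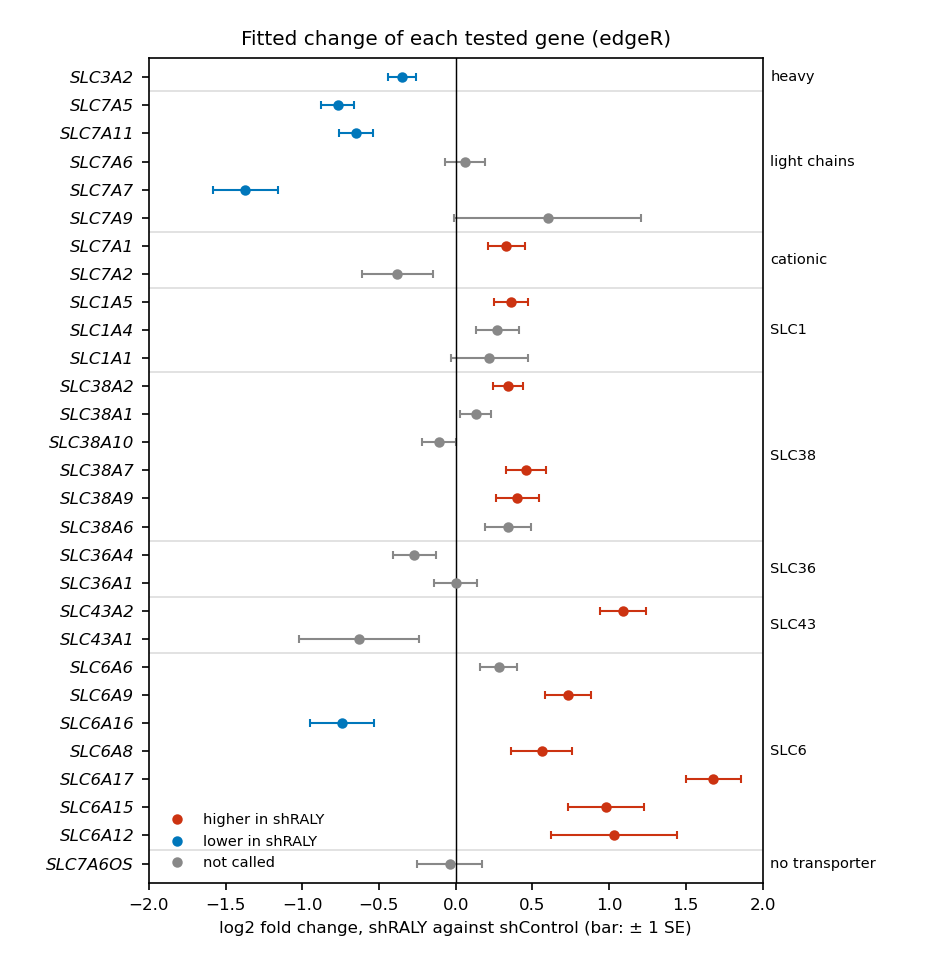
Fitted log2 fold change of each of the 29 tested genes, shRALY against shControl, with bars of 1 standard error, grouped by role. Red genes were called higher, blue genes lower and grey genes were not called at an edgeR adjusted p under 0.05. The blue genes are SLC3A2, SLC7A5, SLC7A11, SLC7A7 and SLC6A16, and the largest rise is SLC6A17 at 1.68.

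The SLC6 family couples uptake of amino acids, transmitters and osmolytes to sodium and chloride. Of its 19 genes 7 were tested, 5 were called higher and 1 lower (85.7% called, against 41.0% of all tested genes), with a median log2 fold change of 0.73. SLC6A17 (NTT4; chr1:110150486-110202202, plus strand), a vesicular carrier of neutral amino acids best known from neurons, was at 6.64 and 7.22 CPM in shControl and 19.8 and 24.6 CPM in shRALY. This 3.20-fold rise was the largest among the 29 tested genes (log2 1.68, SE 0.18; edgeR adjusted p = 8.06e-08). SLC6A9 (GlyT1), the glycine carrier, was at 19.5 and 26.7 CPM against 36.6 and 40.0 CPM, a 1.66-fold rise with no overlap (log2 0.73, SE 0.15; edgeR adjusted p = 3.73e-04). SLC6A15, a neuronal carrier of branched-chain amino acids and proline, was at 3.18 and 2.76 CPM against 6.09 and 5.63 CPM, a 1.97-fold rise (log2 0.98, SE 0.25; edgeR adjusted p = 0.00366). These 3 calls were kept with each library left out, with log2 fold changes of 1.52 to 1.84, 0.51 to 0.98 and 0.90 to 1.08. For SLC6A15 the adjusted p reached 0.0384 without shRALY replicate 1.

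The remaining SLC6 calls were less stable. SLC6A8, the creatine carrier, was at 6.70 and 9.75 CPM against 12.8 and 11.4 CPM, a 1.48-fold rise (log2 0.56, SE 0.20; edgeR adjusted p = 0.0303). It was not called with shControl replicate 1 left out (log2 0.31, adjusted p = 0.233 in edgeR), with shRALY replicate 1 or 2 left out (adjusted p = 0.196 and 0.0589) or by DESeq2 (adjusted p = 0.076). SLC6A12, the betaine and GABA carrier, had 15 and 29 counts in shControl and 38 and 51 in shRALY, a 2.04-fold rise at the edge of the threshold (log2 1.03, SE 0.41; edgeR adjusted p = 0.0491). It was not called without shControl replicate 1 (log2 0.59, edgeR adjusted p = 0.29), without shRALY replicate 2 (log2 0.72, edgeR adjusted p = 0.362) or by DESeq2 (adjusted p = 0.141), and its log2 fold change was 1.63 without shControl replicate 2. SLC6A16, an orphan member of the family, was the only SLC6 gene called lower, at 8.99 and 10.1 CPM against 5.11 and 6.36 CPM (log2 -0.74, SE 0.21; edgeR adjusted p = 0.00764), and was not called without shRALY replicate 1 (log2 -0.58, edgeR adjusted p = 0.146).

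SLC6A6, the taurine carrier and the most abundant SLC6 gene here, was at 308 and 382 CPM against 384 and 452 CPM. The groups did not overlap, but by 2 CPM, and it did not pass (log2 0.28, SE 0.12; edgeR adjusted p = 0.0603). With shControl replicate 2 left out it passed (log2 0.45, adjusted p = 8.04e-05 in edgeR), as in 4 of the alternatives that used all libraries. The genes SLC6A2, SLC6A3, SLC6A4, SLC6A5, SLC6A7, SLC6A11, SLC6A13, SLC6A14, SLC6A18, SLC6A19 and SLC6A20 had at most 6 counts in any library, among them the carriers of noradrenaline, dopamine and serotonin. Beside the rises of SLC6A17 and SLC6A15, the summed level of 8 neuronal marker genes was 63.1 and 60.8 CPM in shControl and 131 and 140.0 CPM in shRALY. Of these 8, 6 were tested and 3 were called higher (MAP2, SNAP25 and SYT1, at log2 2.29, 1.37 and 1.25). That is 50% called, against 41.0% of all tested genes called and 20.6% called higher. Much of the sum was SYT1, at 35.2 and 31.7 CPM in shControl and 73.0 and 86.8 CPM in shRALY. SYP was at 2.34 and 3.41 CPM against 1.90 and 1.41 CPM and was not called (log2 -0.79), and STMN2 had 0 counts in every library and GAP43 at most 2. Their part in the result was not tested.

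**Figure D4:**
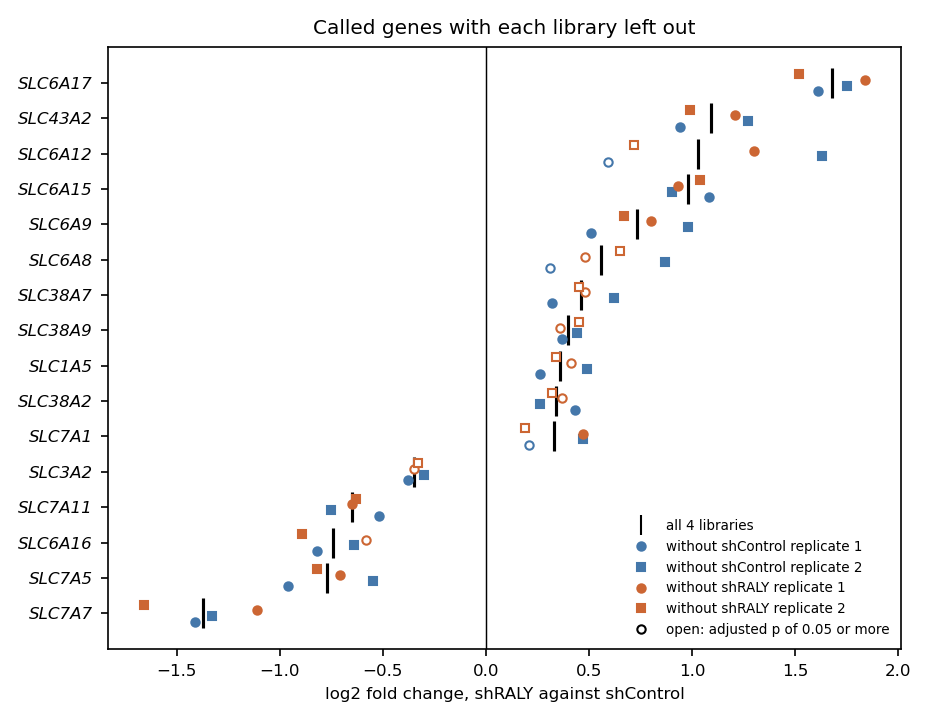
Log2 fold change of each of the 16 called genes with all 4 libraries (black bar) and with each library left out in turn. Blue marks leave out a shControl library and orange marks a shRALY library, and open marks have an edgeR adjusted p of 0.05 or more. No mark crosses 0, and the 7 genes with filled marks throughout are SLC7A7, SLC7A5, SLC7A11, SLC6A9, SLC6A15, SLC43A2 and SLC6A17.

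The amino acid carriers outside these families were called in both directions. Of 22 listed genes (lysosomal, mitochondrial and vesicular carriers), 17 were tested, 3 were called higher and 2 lower (29.4% called, against 41.0% of all tested genes), with a median log2 fold change of -0.03. SLC15A3, a lysosomal carrier of histidine and small peptides, passed the filter through the shRALY libraries alone, so that it had to differ. It had 2 and 1 counts in shControl and 109 and 117 in shRALY, a ratio of 75.8 with an exact 95% counting interval of 25.6 to 370.2. Its close relative SLC15A4 moved the other way, from 48.9 and 51.5 CPM to 29.2 and 28.1 CPM (log2 -0.81, SE 0.12; edgeR adjusted p = 1.25e-05). SLC17A5, which exports sialic acid and acidic amino acids from lysosomes, rose 1.86-fold, from 25.1 and 21.8 CPM to 46.0 and 41.4 CPM (edgeR adjusted p = 8.88e-06). SLC25A44, a mitochondrial carrier of branched-chain amino acids, fell 1.48-fold (log2 -0.56, SE 0.12; edgeR adjusted p = 4.85e-04).

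Genes that sense amino acid supply for the kinases GCN2 and mTORC1 were called in both directions: of 41 listed and tested, 9 were higher and 7 lower (39.0% called, near the 41.0% of all tested genes), with a median log2 fold change of 0.06. The lower count was 3 without shRALY replicate 1 and 3 without shRALY replicate 2, and the higher count 6 without shRALY replicate 2. The leucine sensor SESN2 was at 17.4 and 22.8 CPM in shControl and 122 and 130.5 CPM in shRALY (log2 2.65, SE 0.13; edgeR adjusted p = 2.07e-13). Its relative SESN1 rose 2.53-fold (edgeR adjusted p = 1.86e-07), and DDIT4, an inhibitor of mTORC1, 1.75-fold (edgeR adjusted p = 1.81e-06), the latter with 41.2% of its exonic bases under an opposite-strand gene. CASTOR2, of the arginine sensor family, was at 10.0 and 13.6 CPM against 3.16 and 3.55 CPM (log2 -1.82, SE 0.23; edgeR adjusted p = 1.03e-06), and shares 26.8% of its 50-base words with other genes, so its counts are uncertain. ATF4 itself was at 191 and 188 CPM against 281 and 276 CPM, a 1.47-fold rise (log2 0.56, SE 0.10; edgeR adjusted p = 1.21e-04), with 20.2% of its words shared with other gene models, which makes its counts uncertain.

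Around cystine and glutathione, 16 of 16 listed genes were tested, 6 were higher and 5 lower (68.8% called, against 41.0% of all tested genes), with a median log2 fold change of -0.07. Leaving out shRALY replicate 1 gave 3 and 1, and leaving out replicate 2 gave 3 and 2. CHAC1, which degrades glutathione, was at 4.02 and 4.93 CPM in shControl and 36.7 and 36.3 CPM in shRALY, an 8.16-fold rise (log2 3.03, SE 0.17; edgeR adjusted p = 1.44e-12). CHAC2, a related enzyme, fell 2.42-fold (edgeR adjusted p = 1.73e-05). GCLC, the catalytic subunit of the rate-limiting enzyme of glutathione synthesis, was at 229.6 and 204 CPM against 158 and 156 CPM (log2 -0.47, SE 0.11; edgeR adjusted p = 0.0011). KEAP1, the inhibitor of NRF2, was lower (log2 -0.54; edgeR adjusted p = 4.38e-04) and NFE2L2, which encodes NRF2, was higher (log2 0.44; edgeR adjusted p = 0.00263). Another gene model on the same strand covers 17.6% of the exonic bases of NFE2L2, and how reads on both were counted is not stated. Without shRALY replicate 1 the calls of GCLC, KEAP1 and NFE2L2 were lost (edgeR adjusted p = 0.0591, 0.0579 and 0.108), and GCLC was also lost without shRALY replicate 2 (edgeR adjusted p = 0.0717).

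Of 20 listed genes that use glutamine or glutamate, 19 were tested, 5 were higher and 2 lower (36.8% called, near the 41.0% of all tested genes), with a median log2 fold change of 0.02. The higher count was 3 without shRALY replicate 2, and the lower count 4 without shControl replicate 2. GFPT1, which takes glutamine into the hexosamine pathway, was at 169.7 and 152 CPM in shControl and 379 and 389 CPM in shRALY (log2 1.26, SE 0.11; edgeR adjusted p = 1.50e-09). CAD, which takes glutamine into pyrimidine synthesis, was at 232 and 303 CPM against 139 and 153 CPM (log2 -0.87, SE 0.12; edgeR adjusted p = 3.28e-06). GLUL, glutamine synthetase, fell 1.89-fold (edgeR adjusted p = 6.96e-05), and PSAT1, of serine synthesis, rose 1.45-fold (edgeR adjusted p = 2.74e-04). ASNS, asparagine synthetase, was at 1.62 and 1.64 CPM against 2.88 and 2.69 CPM and was not called (edgeR adjusted p = 0.0758). It shares 82% of its 50-base words with another gene model, so its counts are uncertain.

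Of the 60 genes, 31 did not pass the filter. Among these, 12 had no count in any library and 19 had at least 1, with at most 8 counts in one library. A gene with no counts could lie below 0.163 to 0.183 CPM, the level of 3 counts in a library, by counting error alone. SLC38A3 had 0 counts in shControl and 4 in shRALY. With a floor of 3 counts over the group in place of the 0, the ratio is 1.34. This leaves out the counting error of the 4, so it is no lower bound and no difference is claimed. SLC7A8 had 3 and 7 counts in the groups, a ratio of 2.35 with an exact 95% counting interval of 0.536 to 14.1, so no difference was detectable at this depth.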

How the data were processed

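RNA was measured in 4 A549 libraries, grouped by their titles into 2 shControl and 2 shRALY. The authors deposited raw read counts for each Ensembl gene. The submitters' processing notes name DESeq2 1.20.0, featureCounts 1.5.0-p3, HISAT2 2.0.5 and hg38 without saying what each was used for. Neither the annotation used nor the handling of strand and of reads matching several genes is stated in these sources. All 58735 identifiers matched GENCODE 29 (GRCh38).

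Counts were tested in R 4.3.3 with edgeR 4.0.16: filterByExpr (minimum count 10, minimum total 15), TMM scaling and the robust quasi-likelihood F-test of shRALY against shControl, with Benjamini-Hochberg adjustment over the 15912 genes kept. SEs were taken from the log2 fold change and F. Shared sequence is the percentage of 50-base words of a gene's longest transcript found in another gene's. Values above 20% and wide exonic overlaps are named as uncertain. Alternatives were DESeq2 1.42.0, library size alone, RLE size factors, no filter, 10 CPM in 2 libraries, no robust estimation, a replicate block, protein-coding genes alone and each library left out. Intervals and floors cover counting error alone, because reads were counted without molecular identifiers.

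The genes and lists were chosen with earlier results of these data known. The rule named RALY, every gene of the 7 families (1 is not reported here), the 4 genes with the lowest adjusted p in each list, and ATF4, NFE2L2 and ASNS. Marker lists not given in the report summed, per library, to 25.8 to 36.5 CPM (fibroblast, with THY1 called at log2 -0.65), 0.183 to 0.998 (endothelial), 74.1 to 139.9 (alveolar type II), 4.69 to 6.30 (airway basal) and 8163 to 9396 (epithelial). Single markers were named after their values were seen.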

Additional observations from a re-analysis of the deposited data

How the results depend on the processing

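Over 12 alternatives, 340 values were recomputed for the 29 tested genes of the 7 families: 296 kept their direction and side of the threshold, 26 called values no longer passed, 11 newly passed and 7 changed sign. Of the 16 called genes, 7 kept their call in every alternative that tested them (SLC43A2, SLC6A15, SLC6A17, SLC6A9, SLC7A11, SLC7A5 and SLC7A7), and no called gene changed sign. A filter of 10 CPM left SLC6A12, SLC6A15 and SLC6A16 untested. The sign changes were in 4 genes not called in the main comparison. With one library left out, the log2 fold change ranged from -0.11 to 0.13 for SLC36A1 (-0.06 without shRALY replicate 2), from -0.08 to 0.22 for SLC7A6, from -0.30 to 0.20 for SLC7A6OS (0.01 without shControl replicate 1) and from -0.25 to 0.05 for SLC38A10. With library size alone SLC36A1 was at -0.05, and that scaling moved the median of all genes by -0.06.

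With one library left out, the calls among the 29 genes ranged from 4 to 13 higher and from 3 to 6 lower, and over all tested genes from 2040 to 3559 higher and from 1897 to 3499 lower. The lists ranged, higher and lower, from 6 to 12 and 3 to 8 for amino acid sensing, 3 to 6 and 1 to 6 for cystine and glutathione, 3 to 6 and 2 to 4 for glutamine and glutamate use, and 2 to 5 and 2 to 4 for the other amino acid carriers. A left-out library leaves 1 in its group, assumed to vary like the other group. DESeq2 called 8 higher and 5 lower of the 29 genes. Same-numbered libraries deviated together only weakly (r = 0.123 across genes), and with 2 pairs the numbers are not taken to pair the samples. The replicate block gave 14 higher and 5 lower, gaining SLC1A4, SLC38A6 and SLC6A6. The cause of the lost calls was not tested. Of the 60 genes, 31 had too few counts for a test.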
